A study of Mus musculus with 4 samples.

Results

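Sox9, Sox8, Wt1, Gata1, Gata4, Gata6, Nr5a1, Nr0b1 and Dmrt1 encode transcription factors of the supporting and steroid-producing cells of the gonad, and their ribosome footprints were compared between Eif5 cKO and control mouse testes. These 9 genes were taken by name from the 14984 genes of the table, and all 9 were present. The values came from ribosome profiling, in which the mRNA stretches covered by translating ribosomes survive nuclease treatment and are sequenced. Whole testes of day 10 mice gave 4 libraries, 2 from Eif5 cKO mice and 2 from control mice. In the cKO animals floxed Eif5 (Eif5 fl/fl) was deleted with Stra8-Cre, a transgene whose promoter is active in germ cells, so Sertoli, Leydig and other somatic cells of these mice keep Eif5 by design. The labels do not state the alleles of the control mice. They also do not say whether replicates are separate animals, so p-values here reflect variation among these libraries alone, and that variation may be technical.

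In the fetal gonad, WT1, the GATA4 factor and the nuclear receptor NR5A1 prepare the bipotential gonad, and SOX9 then directs supporting cells to become Sertoli cells, with SOX8 acting beside it. NR5A1 also drives the steroid genes of Leydig cells, and NR0B1, which lacks the usual zinc-finger DNA-binding domain, represses NR5A1. DMRT1, GATA1 and GATA4 act in Sertoli cells after birth, and DMRT1 is also made by spermatogonia. GATA1 is best known from erythroid cells.

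The RefSeq promoter table for GRCm38.p6 held an entry for 3 of the 9 genes. The 250 bases before the start are shown for each. Sox8 and Gata1 had the largest positive and the largest negative difference among the 9. Of the 3 windows shown, that of Nr0b1 was the one with matches to binding motifs of other members. Capitals mark those matches. The windows are chr17:25570687-25570936 on the minus strand for Sox8, chrX:7967911-7968160 on the minus strand for Gata1 and chrX:86191525-86191774 on the plus strand for Nr0b1.
Sox8: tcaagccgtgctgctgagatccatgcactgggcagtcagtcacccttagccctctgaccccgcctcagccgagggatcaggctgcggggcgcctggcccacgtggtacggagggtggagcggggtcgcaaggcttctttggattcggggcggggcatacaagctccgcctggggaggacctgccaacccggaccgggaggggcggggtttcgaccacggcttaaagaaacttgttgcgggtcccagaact
Gata1: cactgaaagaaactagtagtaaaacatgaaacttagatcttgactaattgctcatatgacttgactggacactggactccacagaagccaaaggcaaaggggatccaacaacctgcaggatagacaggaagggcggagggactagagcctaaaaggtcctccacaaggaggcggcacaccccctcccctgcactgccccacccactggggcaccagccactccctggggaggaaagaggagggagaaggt
Nr0b1: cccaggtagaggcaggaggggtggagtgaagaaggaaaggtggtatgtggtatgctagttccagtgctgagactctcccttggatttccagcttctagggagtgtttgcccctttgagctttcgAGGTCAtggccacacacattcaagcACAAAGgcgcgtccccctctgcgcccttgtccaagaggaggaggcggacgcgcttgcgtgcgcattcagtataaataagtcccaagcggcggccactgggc

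Both strands were searched for 4 short motifs. GATA factors bind GATAA, and NR5A1 and other nuclear receptors bind the half-site AGGTCA. SOX factors bind ACAAAG and close variants, and WT1 and EGR factors bind GCGTGGG. Nr0b1 held AGGTCA from 126 to 121 bases and ACAAAG from 101 to 96 bases before its start, and these did not overlap. The windows of Sox8 and Gata1 held none of these letters. Of all 32851 promoter windows of the same length, 22.6% held the GATA motif, 14.0% the nuclear receptor half-site, 16.5% the SOX motif and 4.30% the WT1 and EGR motif. In mice, Gata1 transcripts of Sertoli cells begin at a first exon upstream of the erythroid one. The window printed for Gata1 precedes a start inside the annotated span of the gene, and the start used in these testes was not measured.

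The libraries held 2296938 and 2782527 reads in Eif5 cKO replicates 1 and 2, and 2934609 and 2225964 reads in control replicates 1 and 2. Values below are reads divided by a size factor per library, called normalized footprint reads, and levels of different genes are not compared, because coding lengths were not used here. Eif5 itself had 173 and 266 normalized footprint reads in cKO testes, against 365 and 304 in control testes (log2 fold change -0.63, limma adjusted p = 0.319). Germ cell markers were lower in cKO testes: 10 of 13 tested meiotic prophase genes and 6 of 9 pan-germ-cell genes fell by limma, and 0 rose. Fewer genes of both lists passed with either control left out, where limma's spread came from the cKO pair alone. The meiotic and pan-germ-cell medians were then -1.37 and -1.005 without control replicate 1, and -1.77 and -1.02 without control replicate 2. All 13 and all 9 log2 fold changes stayed negative. All 20 Sertoli marker genes that are not among the 9 factors were present. Their summed reads took 5.00% and 3.94% of the cKO libraries, against 2.98% and 3.81% of the control libraries. Clu gave the most of these reads, with 70687 and 48370.5 normalized footprint reads in cKO testes, against 35567.6 and 52646.1 in control testes. Its values overlapped between groups, and scaling on the markers was also done without it. In whole tissue, fewer cells of a type and less RNA per cell cannot be told apart. Footprints without RNA values also cannot separate either of these from less translation per mRNA.

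The 9 factors did not move as one block. Footprints of Sox8, Gata6, Gata4, Nr5a1, Sox9 and Nr0b1 were higher in both cKO libraries than in both control libraries, those of Gata1 were lower in both, and those of Wt1 and Dmrt1 overlapped. None passed limma's test at a Benjamini-Hochberg adjusted p under 0.05 (0 of 9 called, against 82 of 12095 genes tested, 0.678%). At an unadjusted p under 0.05 limma gave 6 of 9, of which 5 were higher and 1 lower in cKO, against 10.6% of all genes (4.32% higher and 6.31% lower). edgeR called 1 of 9 (Sox8) where it called 0.761% of all genes, limma-voom 1 of 9 (Sox8) against 0.827%, and DESeq2 0 of 9 against 0.463%. The groups did not overlap for 20.0% of all genes upward and 20.9% downward, so the 6 genes higher and the 1 lower are to be read against those shares. The median log2 fold change of the 9 genes was 0.54, and that of all genes tested was 0.003.

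**Figure D1:**
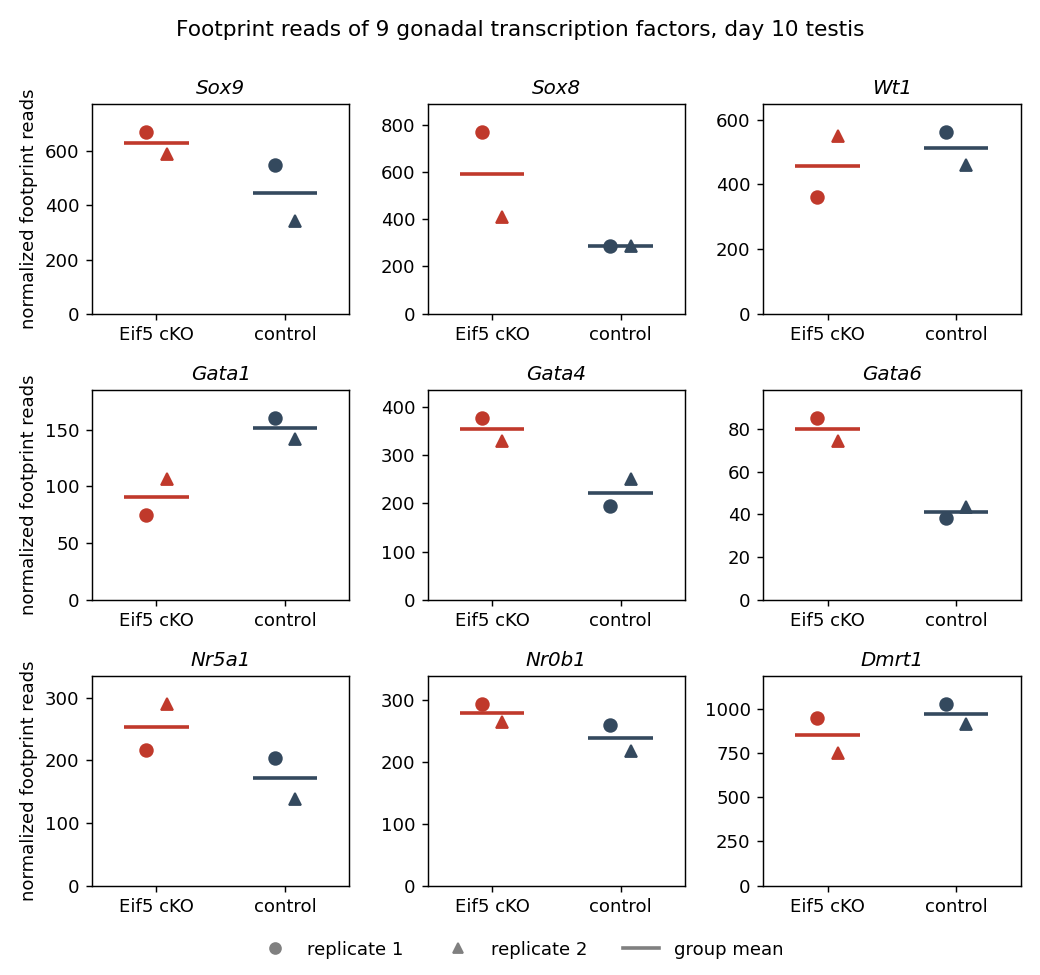
Normalized footprint reads (vertical axes, from 0) of the 9 genes in Eif5 cKO and control testes, with 1 point per library and a line at the group mean of 2 libraries. Gata4 and Gata6 are higher and Gata1 lower in both cKO libraries, while Sox8 is spread between 409 and 771 in cKO and sits at 287 in both controls.

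Sox8 (chromosome 17, 25565893 to 25570686, GRCm38) encodes a group E SOX protein with an HMG-box DNA-binding domain that supports SOX9 in Sertoli cells. It had 771 and 409 normalized footprint reads in cKO replicates 1 and 2, against 287 in each control replicate. The controls nearly coincided, both cKO libraries lay above them, and the cKO libraries were far apart. The means were 590.3 ± 256 in cKO and 287 ± 0.213 in control (SD, n = 2 each), with a log2 fold change of 0.97 (SE 0.25, 95% interval 0.46 to 1.47). In this report limma's SEs, intervals and p-values draw mostly on the spread over all genes, not on a gene's own replicates. In the fit to all 4 libraries they combine 37.0 prior with 2 residual degrees of freedom. By limma the Benjamini-Hochberg adjusted p was 0.0578, the smallest of the 9 genes, and Sox8 stood 87th of 12095 genes by p. The call depended on the tool, and the size of the difference depended on the library left out. The adjusted p was 0.0351 in edgeR, 0.0224 in limma-voom and 0.0905 in DESeq2. Without cKO replicate 2 the log2 fold change was 1.42, and without cKO replicate 1 it was 0.51. In each of these fits limma's spread came from the control pair alone.

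Sox9 (chromosome 11, 112782210 to 112787757), the group E SOX factor that commits supporting cells to the Sertoli fate, had 673 and 591 normalized footprint reads in cKO testes, against 551 and 343 in control testes. The groups did not overlap, but the controls were further apart than cKO replicate 2 was from control replicate 1. Sox9 averaged 632 ± 57.5 in cKO and 447 ± 147 in control (SD, n = 2 each), a log2 fold change of 0.54 (SE 0.24, 95% interval 0.05 to 1.02) with an adjusted p of 0.396 by limma. Wt1 (chromosome 2, 105126529 to 105173614) encodes a zinc-finger protein needed both to form the gonad and to keep Sertoli cells. It had 361 and 550.0 normalized footprint reads in cKO testes, against 562 and 459 in control testes. cKO replicate 2 lay inside the control range and cKO replicate 1 below it. The log2 fold change of Wt1 was -0.19 (SE 0.24, 95% interval -0.67 to 0.29, adjusted p = 0.837 by limma), and without cKO replicate 1 it was 0.11.

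The 3 GATA factors, which share a zinc-finger DNA-binding domain, differed in direction. Gata4 (chromosome 14, 63198914 to 63271712), a factor of Sertoli, Leydig and other gonadal somatic cells, had 378 and 330.2 normalized footprint reads in cKO testes, against 194 and 250.2 in control testes. Every cKO value was above every control value, with means of 354 ± 34.0 in cKO and 222 ± 39.6 in control (SD, n = 2 each). This gave a log2 fold change of 0.68 (SE 0.24, 95% interval 0.19 to 1.17, adjusted p = 0.245 by limma). Gata6 (chromosome 18, 11052510 to 11085636), which overlaps with Gata4 in function in the gonad, had 85.2 and 74.5 normalized footprint reads in cKO testes, against 38.4 and 43.6 in control testes. Replicates were close together in both groups, at 79.8 ± 7.59 in cKO and 41.0 ± 3.72 in control (SD, n = 2 each). Its counts were low, with 75 and 83 reads in the cKO libraries and 47 and 38 in the control libraries. The log2 fold change of Gata6 was 0.94 (SE 0.37, 95% interval 0.19 to 1.70, adjusted p = 0.319 by limma).

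Gata1 (chromosome X, 7959260 to 7976663) is the founding erythroid GATA factor, and in the mouse testis it is made by Sertoli cells from the first wave of spermatogenesis. It had 75.0 and 107 normalized footprint reads in cKO testes, against 161 and 142 in control testes. Both cKO libraries were below both controls, the opposite order to Gata4 and Gata6. The means were 90.9 ± 22.5 in cKO and 152 ± 13.04 in control (SD, n = 2 each), and Gata1 had a log2 fold change of -0.75 (SE 0.30, 95% interval -1.35 to -0.15, adjusted p = 0.317 by limma). All 4 tested erythroid genes had a positive log2 fold change (3 of 4 with Sertoli marker scaling; median 0.51, 0 called, 0 with an unadjusted p under 0.05), but without cKO replicate 1 only 2 of 4 were positive and the median was 0.062. Hbb-bs, a beta-globin gene, had 167 and 96.0 normalized footprint reads in cKO testes, against 118 and 79.2 in control testes, and the 6 erythroid genes present together took 0.0120% and 0.00679% of the cKO libraries, against 0.00767% and 0.00624% of the control libraries. Among them Alas2, the erythroid enzyme of heme synthesis, was at 0 in cKO replicate 2 and at most 12.5 elsewhere. Klf1, Slc4a1, Ermap, Tal1 and Gfi1b, other erythroid genes of the list, were not analysed here. The annotation places the noncoding genes Gm39488 and Gm52419 overlapping Gata1 and Gata6os overlapping the start of Gata6, with no values for them here, and whether counting used strand is not stated.

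Nr5a1 (chromosome 2, 38692656 to 38714542) encodes steroidogenic factor 1. It had 217 and 291 normalized footprint reads in cKO testes, against 204 and 139 in control testes. The groups did not overlap, although cKO replicate 1 and control replicate 1 were closer to each other than to the second library of their own group. The log2 fold change of Nr5a1 was 0.57 (SE 0.26, 95% interval 0.04 to 1.11, adjusted p = 0.420 by limma). Nr0b1 (chromosome X, 86191775 to 86195947), the DAX1 repressor, had 294 and 265 normalized footprint reads in cKO testes, against 259.5 and 218 in control testes. Its log2 fold change was 0.23 (SE 0.24, 95% interval -0.26 to 0.72, adjusted p = 0.793 by limma), and it turned negative when libraries were scaled on somatic markers, as given below. Dmrt1 (chromosome 19, 25505618 to 25604328), a DM-domain factor that keeps Sertoli cells male and restrains meiotic entry of spermatogonia, had 951 and 752 normalized footprint reads in cKO testes, against 1029 and 917 in control testes. cKO replicate 1 lay between the controls. The log2 fold change of Dmrt1 was -0.20 (SE 0.23, 95% interval -0.66 to 0.26, adjusted p = 0.812 by limma).

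**Figure D2:**
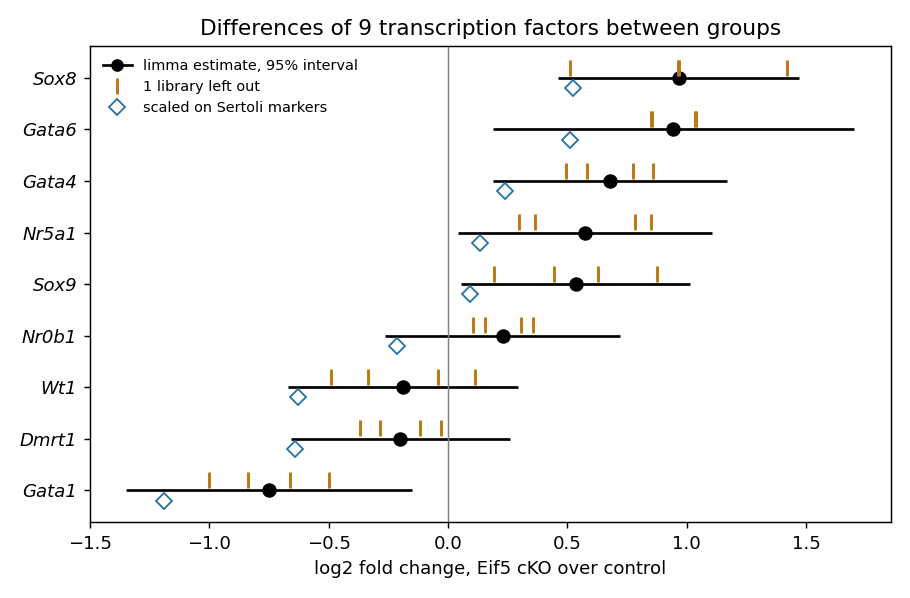
Log2 fold change of Eif5 cKO over control for the 9 genes, with the limma estimate and its 95% interval (black), the 4 estimates with 1 library left out (ticks) and the estimate with libraries scaled on Sertoli markers (diamonds). All diamonds lie left of the black points, and for Nr0b1 the diamond is at -0.21, on the other side of 0, while Wt1 crosses 0 in 1 of its ticks.

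Because the germ cell share of reads differed, the 9 genes were also set against other genes of the same libraries. With libraries scaled on the summed Sertoli markers the median of all genes moved to -0.43, and the 9 log2 fold changes moved with it. On that scale Sox8 was at 0.52, Gata6 at 0.51, Gata4 at 0.24, Nr5a1 at 0.13, Sox9 at 0.09, Nr0b1 at -0.21, Wt1 at -0.63, Dmrt1 at -0.64 and Gata1 at -1.19, with 0 of 9 called by limma. Relative to the median of all genes the same values were 0.96 for Sox8, 0.52 for Sox9 and -0.76 for Gata1, close to those on the deposited scale. They had to be close, because scaling shifts all genes by nearly the same amount. Scaling on markers of Leydig, myoid, endothelial, macrophage and stromal cells moved the median of all genes to -0.23, and Nr0b1 then stood at -0.01.

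Each gene was next expressed as the log2 ratio of its value to the geometric mean of the 20 Sertoli markers in the same library. For Gata4 the ratio was -1.59 and -1.57 in cKO testes, against -1.84 and -1.76 in control testes. For Gata6 it was -3.74 and -3.72 in cKO testes, against -4.18 and -4.28 in control testes. Both GATA genes were thus high relative to the Sertoli markers in both cKO libraries, and the part of other cell types in their values was not tested. For Sox8 it was -0.56 and -1.26 in cKO testes, against -1.28 and -1.56 in control testes, where cKO replicate 2 barely cleared control replicate 1. The Gata1 ratio was -3.92 and -3.20 in cKO testes, against -2.11 and -2.57 in control testes. The Dmrt1 ratio was -0.26 and -0.38 in cKO testes, against 0.56 and 0.12 in control testes. Gata1 and Dmrt1 were thus low relative to Sertoli markers in both cKO libraries. The ratios of Sox9, Wt1, Nr5a1 and Nr0b1 overlapped between groups, and that of Sox9 differed by 0.07. In all, 3 of 9 genes had both cKO ratios above both control ratios, against 3.41% of genes tested, and 2 of 9 had both below, against 50.2%. The size factor of a library cancels in this ratio, apart from the 1 added to the marker values, and 2 libraries against 2 allow no exact two-sided p below 0.333, so no test was made.

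The 9 genes together took 0.146% and 0.135% of the cKO libraries, against 0.137% and 0.110% of the control libraries, which overlapped. Within that sum the shares of the genes add up to a fixed total, so the share of a gene can fall because others rise. Gata1 held 1.97% and 3.17% of the reads of the 9 genes in cKO libraries, against 4.89% and 5.08% in control libraries. Dmrt1 held 24.99% and 22.3% of them in cKO libraries, against 31.3% and 32.8% in control libraries, although its normalized footprint reads overlapped between groups. Sox8 held 20.3% and 12.1% in cKO libraries, against 8.74% and 10.3% in control libraries. Nr0b1 held between 7.73% and 7.90% in every library, the steadiest share.

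**Figure D3:**
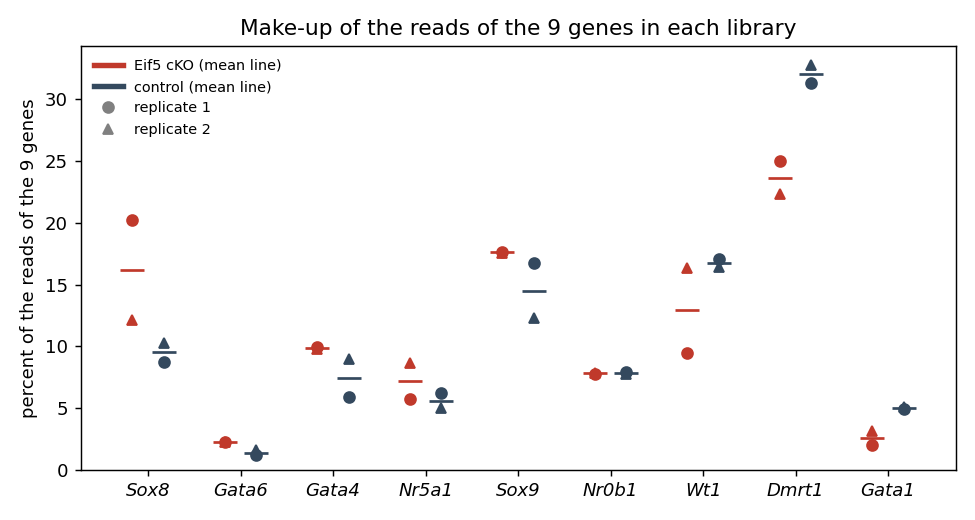
Percent of the reads of the 9 genes (vertical axis, from 0) that each gene took in each library, with Eif5 cKO left of control, 1 point per library and a line at the mean of 2 libraries. Dmrt1 is at 24.99% and 22.3% in cKO and at 31.3% and 32.8% in control, and Gata1 at 1.97% and 3.17% against 4.89% and 5.08%.

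Genes that these factors act on were followed next. Of 19 tested Sertoli targets and effectors, 1 rose (Hsd17b1, which forms estradiol from estrone, log2 fold change 1.44) and 0 fell by limma, with a median of 0.31, and all 19 had a positive log2 fold change. With libraries scaled on Sertoli markers 7 of the 19 were positive (median -0.13), and on other somatic markers 15. With cKO replicate 1, control replicate 1 or control replicate 2 left out, 18 of 19 were positive, and the median over the 4 fits with 1 library left out ranged from 0.22 to 0.51. The Hsd17b1 call did not hold in DESeq2 (adjusted p = 0.0875), with scaling on Sertoli markers (1.00, adjusted p = 0.400), or without cKO replicate 1 (1.27, adjusted p = 0.128), control replicate 1 (1.63, adjusted p = 0.223) or control replicate 2 (1.25, adjusted p = 0.418). The marker list and this list share genes. Amh, the anti-Müllerian hormone and a classic target of SOX9, WT1, GATA4 and NR5A1, had 4608 and 2501 normalized footprint reads in cKO testes, against 1781 and 2421 in control testes (log2 fold change 0.71, adjusted p = 0.292). Inha, the inhibin alpha subunit, had 6143 and 3752 in cKO testes, against 2315 and 2797 in control testes (0.92, adjusted p = 0.116). Inhbb, an inhibin beta subunit, had 625 and 367 in cKO testes, against 300.3 and 303 in control testes (0.66, adjusted p = 0.269). For Amh, Inha and Inhbb, as for Sox8, cKO replicate 1 was well above cKO replicate 2.

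Of 9 tested steroidogenic targets of NR5A1, 0 passed in either direction by limma, 6 had an unadjusted p under 0.05, and the median was 0.69, with all 9 positive. With Sertoli marker scaling 6 of the 9 were positive (median 0.25), and edgeR, DESeq2 and limma-voom called 0 of them. Without control replicate 1 the median was 0.28, and without cKO replicate 2 it was 0.58, with 8 of 9 positive and 3 called. Cyp11a1, the enzyme that starts steroid synthesis, had 443 and 584 normalized footprint reads in cKO testes, against 325 and 261 in control testes (log2 fold change 0.80, adjusted p = 0.114). Star, which carries cholesterol into mitochondria, was at 0.85 (adjusted p = 0.220), and Hsd17b3, the testosterone-forming enzyme, at 0.69 (adjusted p = 0.251). The Leydig markers among these took 0.114% and 0.104% of the cKO libraries, against 0.0662% and 0.0797% of the control libraries. The part of Leydig cell reads in the Nr5a1, Gata4 and Gata6 values was not tested. Of 15 tested upstream and partner factors, 0 passed in either direction by limma and 1 had an unadjusted p under 0.05 (median 0.07, or -0.37 with Sertoli marker scaling and -0.017 without cKO replicate 1), and edgeR, DESeq2 and limma-voom called 0. The gene with an unadjusted p under 0.05 was the insulin receptor gene Insr, with 168 and 204 normalized footprint reads in cKO testes, against 105 and 118 in control testes (0.72, adjusted p = 0.293). Zfpm1, which encodes the GATA cofactor FOG1, was at 0.82 (adjusted p = 0.530).

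The list of ovarian pathway genes gave no call. Its tested genes were Ctnnb1, Fst, Esr1, Lgr5 and Zbed3, while Foxl2, Wnt4, Rspo1, Runx1 and Cyp19a1 were not tested. Of the 14 on the list 10 were present and 5 passed the filter on low reads, of which 0 were called and 0 had an unadjusted p under 0.05 by limma (median -0.03), with 0 called by edgeR, DESeq2 and limma-voom. The ovarian median was -0.44 with Sertoli marker scaling, and it turned positive without cKO replicate 1 (0.10), cKO replicate 2 (0.19) or control replicate 1 (0.16). Zbed3, Esr1 and Fst had the smallest p, with log2 fold changes of 0.40, -0.32 and 0.28 and adjusted p of 0.780, 0.824 and 0.884. Wnt4, a signal of ovary formation, had 0 and 0.897 normalized footprint reads in cKO testes, against 3.26 and 6.89 in control testes, and Foxl2, the granulosa cell factor, was not analysed here.

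Relatives of the 9 factors were counted in the same way, and 0 passed in limma, edgeR, DESeq2 or limma-voom. An unadjusted limma p under 0.05 was reached by 1 SOX, 1 GATA-type, 1 DMRT, 1 orphan receptor and 0 EGR genes. Among 8 tested SOX genes the median was 0.43 (-0.0085 with Sertoli marker scaling), and Sox4 had 364 and 337 normalized footprint reads in cKO testes, against 259 and 228 in control testes (log2 fold change 0.52, adjusted p = 0.410). Sox6 was at 0.98 (adjusted p = 0.525) and Sox3 at -0.79 (adjusted p = 0.582). Among 5 genes of other GATA-type zinc-finger proteins the median was -0.22, with Gatad1 at 1.10 (adjusted p = 0.225), Gatad2b at -0.22 (adjusted p = 0.799) and Trps1 at -0.29 (adjusted p = 0.834). Among 3 DMRT genes the median was -0.36. Dmrtb1, the DMRT6 factor that in mouse spermatogonia coordinates the passage to meiosis, had 27.3 and 11.7 normalized footprint reads in cKO testes, against 64.5 and 62.0 in control testes. Its log2 fold change was -1.76 (SE 0.49, 95% interval -2.75 to -0.78, adjusted p = 0.0823), below the interval of Dmrt1, although that difference was not tested. The 3 EGR genes had a median of -0.19, with Egr2 at 0.82, Egr1 at -0.20 and Egr4 at -0.19 (adjusted p = 0.815, 0.889 and 0.903). The 4 orphan receptors had a median of 0.13 (-0.30 with Sertoli marker scaling), and Nr6a1, the germ cell nuclear factor gene, had 27.3 and 23.3 normalized footprint reads in cKO testes, against 57.1 and 45.9 in control testes (-0.99, adjusted p = 0.423). With 1 library left out the medians ranged from 0.24 to 0.62 for SOX genes, -0.38 to -0.055 for GATA-type genes, -0.47 to -0.24 for DMRT genes, -0.41 to 0.22 for EGR genes and -0.056 to 0.13 for orphan receptors. The EGR median was positive without cKO replicate 2 and without control replicate 1 (0.034), and the orphan receptor median was negative without cKO replicate 2. With Sertoli marker scaling the GATA-type, DMRT and EGR medians were -0.66, -0.80 and -0.63.

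**Figure D4:**
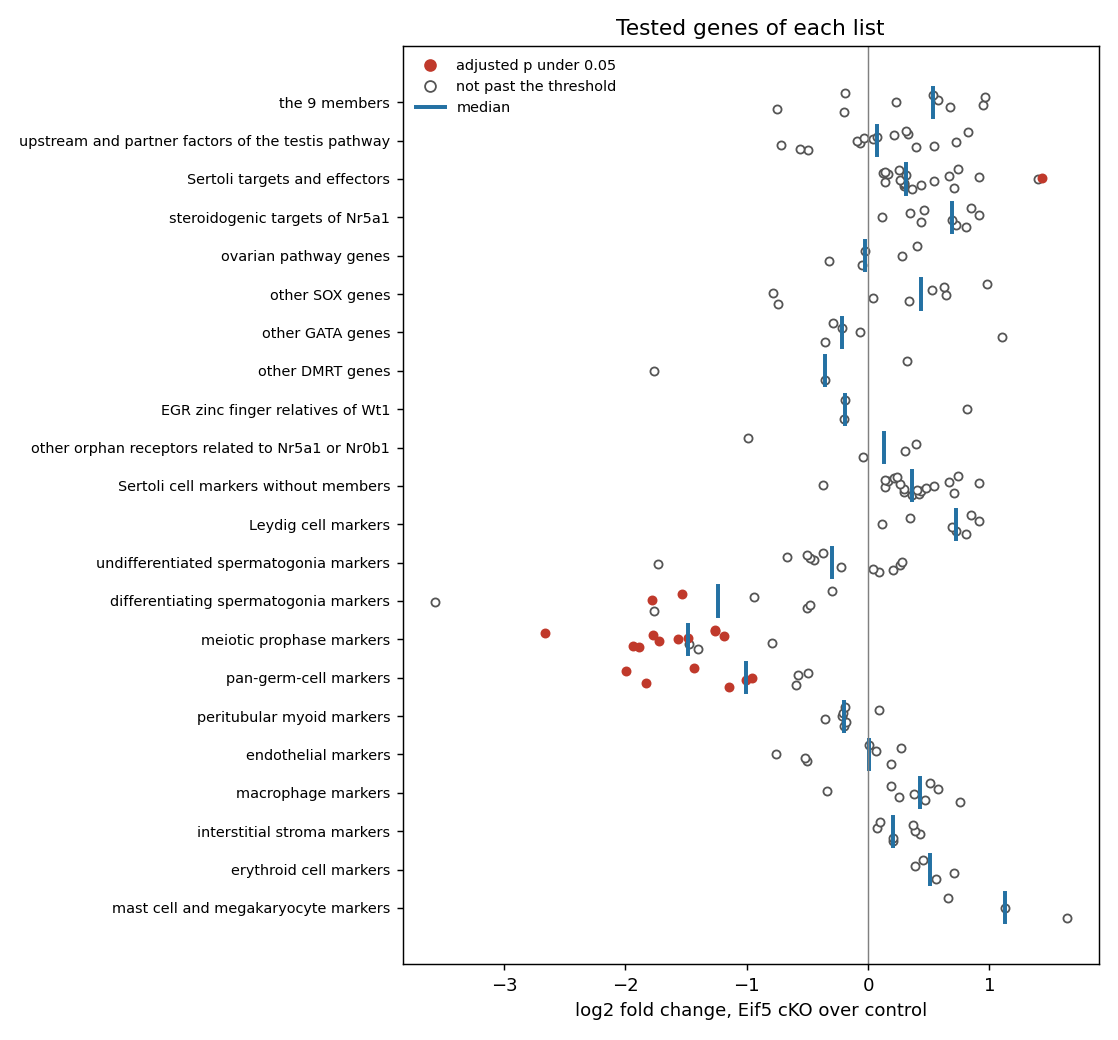
Log2 fold change of Eif5 cKO over control for each tested gene of the 9 factors and of 21 gene lists, with a bar at the median of each list; red points passed limma at an adjusted p under 0.05. The red points are meiotic, pan-germ-cell and differentiating spermatogonia genes below 0 and Hsd17b1 above 0, and none is among the 9 factors.

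Other cell types of the testis gave these values by limma. Of 8 tested genes of differentiating spermatogonia 2 fell (Stra8 and Rhox13, median -1.24), though 0 passed without control replicate 1, where Stra8 was at -1.28 and Rhox13 at -1.52, and of 12 of undifferentiated spermatogonia 0 passed (median -0.30). The undifferentiated list took 0.0431% and 0.0424% of the cKO libraries, against 0.0533% and 0.0462% of the control libraries, and the part of spermatogonia in the Dmrt1 value was not tested. The meiotic and pan-germ-cell medians were -1.49 and -1.01. Of 19 Sertoli markers 0 passed (median 0.36), and of 7 Leydig markers 0 passed (median 0.72). Medians were -0.20 for 7 myoid genes, 0.005 for 7 endothelial genes, 0.43 for 8 macrophage genes and 0.21 for 7 stromal genes, with 0 called in each. The 3 tested genes of mast cells and megakaryocytes, other cell types that make GATA1, had a median of 1.13 with 0 called. An unadjusted limma p under 0.05 was reached by 2 undifferentiated spermatogonia, 5 Sertoli, 5 Leydig, 2 macrophage and 2 mast cell or megakaryocyte genes, and by 0 myoid, endothelial and stromal genes. In these 8 lists edgeR called 0 genes, and DESeq2 and limma-voom called 1 each (Inha). Sertoli marker scaling uses the summed reads of the Sertoli list itself, so the scaling draws that list's own median toward 0. With Sertoli marker scaling the medians of Sertoli, endothelial, macrophage and stromal genes were -0.079, -0.43, -0.012 and -0.23. On the same scale they were -0.74 for undifferentiated spermatogonia (0 of 12 positive), -0.64 for myoid genes (0 of 7 positive), 0.28 for Leydig markers (5 of 7 positive) and 0.70 for mast cell and megakaryocyte genes (3 of 3 positive). With 1 library left out the medians ranged from -0.36 to -0.081 for undifferentiated spermatogonia, 0.24 to 0.49 for Sertoli markers, 0.48 to 0.70 for Leydig markers, -0.36 to -0.032 for myoid genes, 0.28 to 0.42 for macrophage genes, 0.085 to 0.48 for stromal genes and 1.10 to 1.34 for mast cell and megakaryocyte genes. The lowest Leydig, macrophage and stromal medians came without control replicate 1, and the undifferentiated and myoid medians nearest 0 without cKO replicate 1 and without cKO replicate 2. The endothelial median was 0.37 without cKO replicate 2 and negative with any 1 of the other 3 libraries left out, down to -0.48 without control replicate 1. Without cKO replicate 2, limma called 3 Leydig, 2 Sertoli and 1 undifferentiated spermatogonia gene, and without cKO replicate 1 it called 1 Leydig gene.

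Over the 4 libraries, the tested gene with the profile most like that of each factor was found by Euclidean distance on centred log2 values among 7492 genes. It was Insl3 for Sox8 (distance 0.12), Phf20l1 for Sox9 (0.07), Hnrnph1 for Wt1 (0.03) and Nup160 for Gata1 (0.08). For Gata4, Gata6, Nr5a1, Nr0b1 and Dmrt1 it was Smo (0.03), Itga4 (0.09), Peg3 (0.07), Grb2 (0.02) and Kctd9 (0.02). Insl3, the Leydig cell hormone, had 119 and 68.2 normalized footprint reads in cKO testes, against 49.0 and 45.9 in control testes, and so shared with Sox8 the high value of cKO replicate 1. With 4 points per gene and many candidates, near profiles are found for any gene.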

How the data were processed

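Ribosome footprints were measured in 4 testis libraries (2 Eif5 cKO, 2 control), grouped by sample title. Bowtie2, STAR, featureCounts and GRCm38 are named in the submitters' processing notes, and no strand or multi-mapping setting is given in the sources used here. The deposited columns are named raw counts but hold a normalized signal: each value was a whole multiple of 1 read's value in its column, and 100% of values came out as whole reads (relative tolerance 1e-06). The divisors equalled median-of-ratios size factors. The table holds 14984 genes, each with at least 10 reads in total.

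limma 3.58.1 (R 4.3.3) with an intensity trend was fitted to log2(value + 1), which understates the change of low genes, over 12095 genes passing filterByExpr of edgeR 4.0.16 (minimum count 10). Tests were two-sided, with Benjamini-Hochberg adjustment over all genes tested and calls at an adjusted p under 0.05. The fits were tested on simulated reads. Alternatives were edgeR, DESeq2 1.42.0 and limma-voom on recovered reads, which called 92, 56 and 100 genes, and other scalings, pseudocounts and filters, libraries left out, and a replicate block. The 9 factors, the 21 lists and the naming rule were chosen with earlier results of these data known. The rule names Eif5, the 9 factors, called genes and the 3 smallest p per list (2 per cell type list), and the nearest profile of each factor; lists are summarised, and values are given where a result turns on a gene. Cyp17a1 and Insl3 in the closing section were chosen after their values were seen. Footprint density per coding length was not computed.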

Additional observations from a re-analysis of the deposited data

How the results depend on the processing

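The log2 fold changes of Gata4, Gata6, Sox8, Sox9 and Nr5a1 stayed positive, and those of Gata1 and Dmrt1 negative, under each of the 17 alternative fits run. The other filters and the replicate block leave log2 fold changes unchanged by construction, so those fits could not turn a sign. Sox8 passed in 7 of them: edgeR (log2 fold change 1.03, adjusted p = 0.0351), limma-voom (0.95, 0.0224), library totals (0.92, 0.0491), a pseudocount of 4 (0.96, 0.0402), no filter (0.97, 0.0438), a replicate block (0.97, 0.0410) and without cKO replicate 2. These settings, and an adjusted p under 0.1, are those that called 1 of the 9 genes. Without cKO replicate 2 limma's spread came from the control pair alone. With 1 library left out, 0 to 1 of the 9 were called, and the log2 fold change ranged from 0.51 to 1.42 for Sox8, 0.19 to 0.88 for Sox9, -0.49 to 0.11 for Wt1, -1.003 to -0.50 for Gata1, 0.50 to 0.86 for Gata4, 0.85 to 1.04 for Gata6, 0.30 to 0.85 for Nr5a1, 0.10 to 0.35 for Nr0b1 and -0.37 to -0.03 for Dmrt1. The median of the 9 ranged from 0.19 to 0.50 in those fits and was 0.093, 0.084 and 0.30 with scaling on Sertoli markers, on Sertoli markers without Clu and on other somatic markers. Nr0b1 was at -0.21, -0.22 and -0.0075 under these 3 scalings, which shift all genes. Against the list's median in place of its mean, the log2 ratio to Sertoli markers differed by 0.43 for Gata4 and 0.71 for Gata6, against 0.22 and 0.50.

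Over the whole table, 401 and 149 genes were called with scaling on Sertoli markers without Clu and on other somatic markers, 149 and 37 at an adjusted p under 0.1 and under 0.01, and 10 (without control replicate 1), 20 (without control replicate 2), 127 (without cKO replicate 1) and 346 (without cKO replicate 2) with a library left out. Higher calls were 9 of 82 on the deposited scale, 1 of 103 with scaling on Sertoli markers, 2 of 401 without Clu and 1 of 149 on other somatic markers. Of the pathway genes 2 were called by limma-voom and by library totals (Hsd17b1 and Inha), 0 by the 3 marker scalings or at an adjusted p under 0.01, and 0 to 6 with a library left out, the 6 being Hsd17b1, Inha, Inhbb, Star, Cyp17a1 and Insl3 without cKO replicate 2. Of the relatives 1 was called (Dmrtb1) by library totals, by the 3 marker scalings and at an adjusted p under 0.1, and 0 to 1 with a library left out. The replicate block called 100 genes, 1 of the 9 factors and 1 pathway gene. Same-numbered libraries deviated with a correlation of -0.05 across genes, so the numbers were not taken to pair the samples. Causes were not tested.

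Among uncalled genes that the naming rule picks from the lists, signs turned with scaling on Sertoli markers, with and without Clu, for Zbed3 (-0.033, -0.041), Fst (-0.15, -0.16), Dmrtc1a (-0.12, -0.13), Nr2c2 (-0.13, -0.14), Nr4a1 (-0.039, -0.046), Igf1 (-0.018, -0.027), Pdgfra (-0.076, -0.085) and Hbb-bs (-0.051, -0.059). With 1 library left out the range crossed 0 for Zfpm1 (-0.035 to 1.67), Zbed3 (-0.077 to 0.88), Esr1 (-0.81 to 0.17), Egr1 (-0.44 to 0.034), Egr4 (-0.60 to 0.22), Nr4a1 (-0.17 to 0.96), Cnn1 (-0.87 to 0.16) and Hbb-bs (-0.0073 to 0.79). Density per coding or exonic length was not run. With 2 libraries per group and 38 to 83 reads per library, Gata6 had the least depth of the 9.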
